A study of Mus musculus with 59 samples.

Results

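Gene expression in the frontal cortex of juvenile mice was compared with that of young adult mice, on 19 of the 59 mice of a study of a human transgene. The 10 young adults were all mice with an age label of day 55, 58, 79, 80, 82 or 111, and the 9 juveniles were all mice labelled day 21, 23, 24, 32 or 34. Each mouse gave 1 library of polyA RNA. The study put the human gene GLUD2, which encodes a glutamate dehydrogenase, into C57Bl/6 mice on a human bacterial artificial chromosome and kept 2 transgenic lines, a and b, each with control littermates. The labels name the tissue prefrontal cortex.

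The juveniles were 4 control and 5 transgenic mice, of which 5 belonged to line a and 4 to line b, and 5 were female and 4 male. The young adults were 4 control and 6 transgenic mice, 5 of each line and 5 of each sex. All 19 mice had the C57Bl/6 strain label, and the transgenic animals were GLUD2+/-, with the gene under the human sequence of its artificial chromosome. Every mouse was a separate animal. Control and transgenic mice were pooled, with genotype and line as covariates. Ages were spread within each group, so "young adult" covers days 55 to 111 and not a single time.

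In the weeks between weaning and adulthood the rodent cortex still adds myelin. Oligodendrocyte precursors leave the cell cycle, pass through a short premyelinating stage and then make large amounts of myelin protein, lipid and cholesterol, and output falls to a maintenance level once sheaths are built. Between birth and adulthood neurons stop extending processes and the extracellular matrix around them matures. In that time brain fuel use also moves away from the ketone bodies of the suckling period.

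Values were RPKM, reads scaled to transcript length and library depth, and were compared as log2(RPKM + 0.5), so the differences of low genes are understated. The tables' smallest steps gave 7.76 to 10.01 M reads per library, with a median of 8.59 M in juveniles and 8.72 M in young adults, and 1 RPKM unit stood for 33.3 reads in the median gene and library. The row of GLUD2 marked the transgenic mice. The labels do not say what the row lincBAC is. It was taken as a second transgene row because it was near 0 in controls, so it is no separate check of genotype. Its highest value was 0.15 RPKM in juvenile controls and 0.04 RPKM in young adult controls. GLUD2 was between 6.68 and 10.1 RPKM in the 11 transgenic mice and at most 0.65 RPKM in the 8 controls. In transgenic mice it stood at 8.06 ± 1.16 RPKM (SD, n = 5) in juveniles and 8.38 ± 1.24 RPKM (SD, n = 6) in young adults (two-sided exact permutation p = 0.662). For lincBAC the means were 10.6 ± 1.82 and 12.2 ± 1.90 RPKM (SD, n = 5 and n = 6; two-sided exact permutation p = 0.186). Xist and 4 Y-linked genes followed the sex labels in all 19 mice. The cortical neuron markers Slc17a7, Cux2, Tbr1, Fezf2 and Bcl11b were above 0 in all 19 libraries.

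The amount of neighbouring tissue and blood differed between libraries. Striatal Drd2, a dopamine receptor, ranged from 3.41 to 28.3 RPKM in juveniles and from 1.89 to 26.1 RPKM in young adults. The hypothalamic hormone gene Avp reached 31.8 RPKM in a juvenile and 50.9 RPKM in a young adult against medians of 0.51 and 0.48 RPKM. The choroid plexus gene Ttr reached 240.1 and 231 RPKM against medians of 1.42 and 1.44 RPKM. None of the 14 striatal, 17 hypothalamic, 12 olfactory and 9 choroid plexus markers tested passed an adjusted p of 0.05 in limma, a linear model with spread shared across genes, or by voom, its form for counts, run on the recovered reads. At an unadjusted p under 0.05 there were 0, 0, 2 and 0, though the median striatal marker was higher in young adults by 0.33 on the log2 scale. With both lines together all 14 striatal differences were positive. By line, the striatal median was 0.81 in line a and -0.14 in line b, and the olfactory median 0.01 and -0.78. Of 10 hippocampal and thalamic markers tested 1 fell, Plekhg1, which is also in the list of newly formed oligodendrocytes. Blood markers did move with age and are described with their genes. The plot of marker lists by mouse shows these levels.

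**Figure D1:**
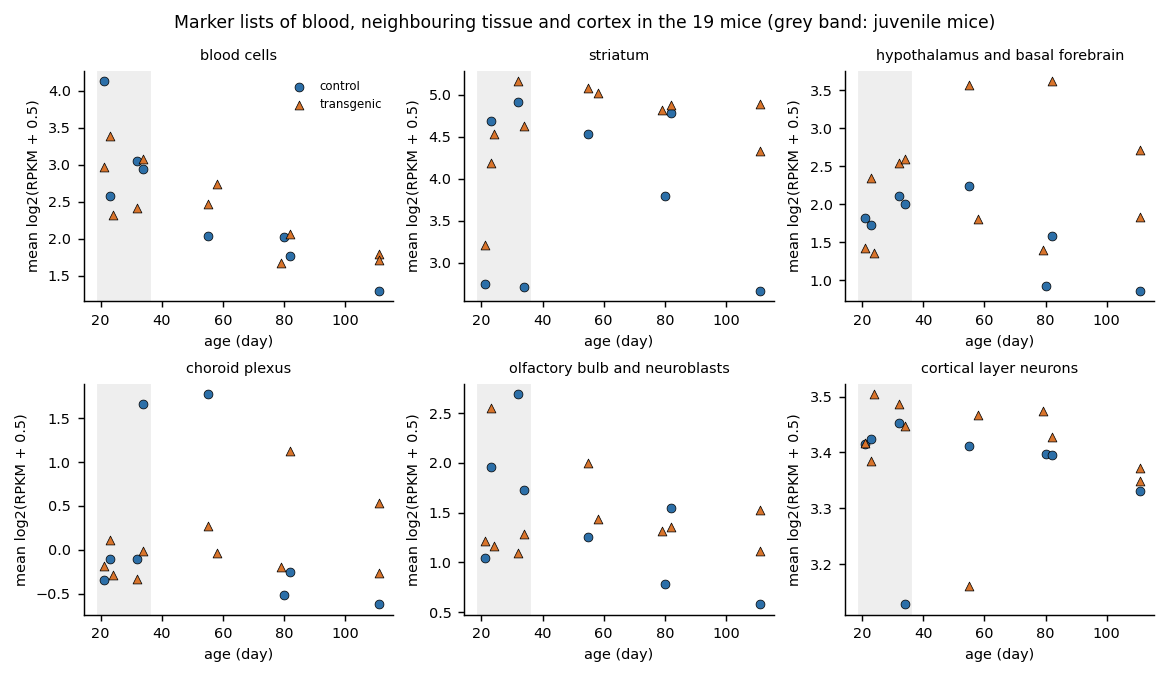
Mean log2(RPKM + 0.5) of 6 marker lists (vertical axis) against age in days, 1 point per mouse, control mice as circles and transgenic mice as triangles, juveniles in the grey band. Blood markers are lower in most young adults, while striatal, hypothalamic, choroid plexus and olfactory markers vary between mice of either group.

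Of 16403 genes tested, 242 (1.48%) were higher and 515 (3.14%) lower in young adults than in juveniles at an adjusted p under 0.05 (limma, Benjamini-Hochberg), 4.62% in all. At an unadjusted p under 0.05 there were 3263 (19.9%). The changes were small: the median log2 difference was 0.29 among the genes that rose and -0.32 among those that fell, and 26 called genes, 5 higher and 21 lower, differed by more than 1 on the log2 scale. In 10 genes (0.061% of those tested) all young adults were above all juveniles, and in 40 (0.244%) all were below; 10 and 39 of these were called. For 89.1% of genes the 95% interval of the difference stayed inside 1.5-fold, and for 97.2% it stayed inside 2-fold. Under quantile normalization the calls were 331 higher and 472 lower, and the median of all genes moved from -0.01 to 0.00. The mitochondrial rows, which compete with all others for RPKM, took 12.2 ± 0.36% of the sum (SD, n = 9) in juveniles and 13.2 ± 0.598% (SD, n = 10) in young adults (two-sided exact permutation p = 0.00065).

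The calls depended on the ends of the age range and on whether a blood covariate was used. Without the 5 mice of days 21 to 24, 0 genes passed (limma, 1176 at an unadjusted p under 0.05), with 4 juveniles left. Without the 3 mice of day 111, 145 passed. Without mouse 13 (control) or mouse 41 (transgenic), both of day 21, 422 genes passed each time, and without both 211. Leaving out mouse 14, 20, 42, 50 or 51 alone left 383 to 500. With the mean of 8 blood markers as a covariate 0 genes passed (limma, 1637 at an unadjusted p under 0.05). That list differed between the groups, so the covariate also takes up age.

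The labels place 14 of the 19 mice in 7 pairs of a control and a transgenic mouse of the same line and day, without saying whether the mice of a pair were littermates. With line and day as a block, mice of a block had a correlation of 0.24, and 122 genes were higher and 301 lower (limma, 423 in all), each of them also called without it. Of the genes named below as called, Tubb3, Dcx, mt-Nd3, Fdps, Ddit4, Igfbp2, Ier5l, Car12, Susd5, Mir425, Plk5, Mbp, Neu4, Alas2 and Rims3 did not pass with the block (limma adjusted p = 0.051 for mt-Nd3 to 0.096 for Igfbp2). The members that fell with the block were 9 of 14 for newly formed oligodendrocytes, 8 of 28 for myelin, 0 of 13 for precursors, 4 of 23 for cholesterol synthesis, 7 of 27 for neurite outgrowth and 8 of 31 for collagens. The medians of these 6 lists were -0.48, -0.41, -0.27, -0.23, -0.34 and -0.19.

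**Figure D2:**
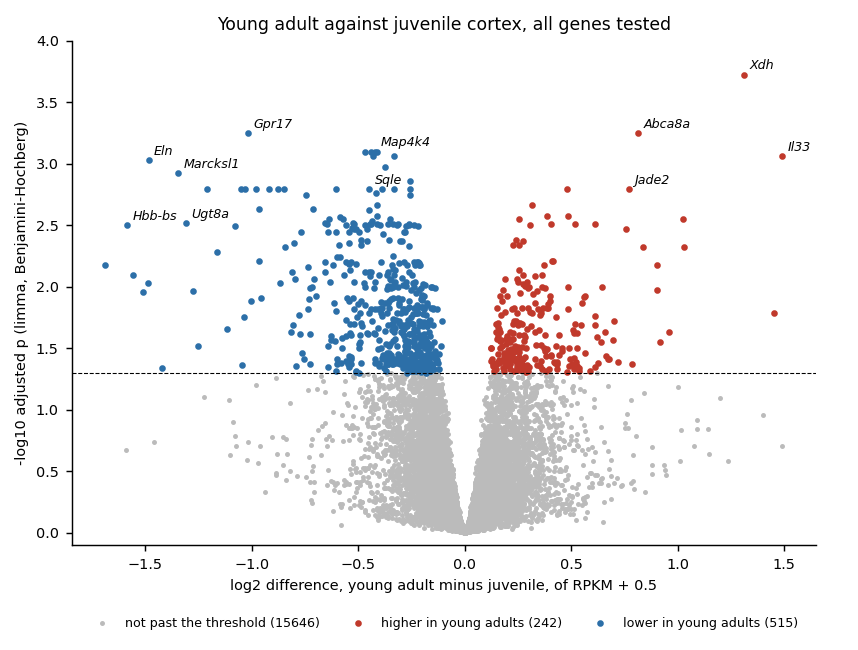
Log2 difference between young adults and juveniles (horizontal axis) against -log10 of the adjusted p from limma (vertical axis), 1 point per tested gene, with the dashed line at 0.05. Of the called genes 515 lie on the lower side and 242 on the higher side, and Xdh, Abca8a, Il33 and Gpr17 are among the highest points.

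Genes of newly formed oligodendrocytes, the premyelinating stage, were lower in young adults. Of 14 members tested 11 fell and 0 rose, with a median log2 difference of -0.48 against -0.01 over all genes. Gpr17, a receptor of the premyelinating stage, had 15.6, 21.3 and 29.5 RPKM as lowest, median and highest value in juveniles and 8.32, 9.59 and 12.7 RPKM in young adults. No young adult reached the lowest juvenile, and the difference was -1.02 ± 0.12 (log2, SE; limma adjusted p = 0.00056). Enpp6, a phosphodiesterase used to mark oligodendrocytes that have just begun to differentiate, had 1.89, 2.71 and 5.14 RPKM in juveniles and 0.82, 1.14 and 2.37 RPKM in young adults. The groups overlapped in 1 young adult, and the difference was -0.97 ± 0.15 (limma adjusted p = 0.0024). Fyn, a kinase that acts in early myelination, fell by less, from a median of 30.1 to 24.1 RPKM (-0.32 on the log2 scale, limma adjusted p = 0.0031). In a bulk sample, fewer cells of a type and less RNA per cell cannot be told apart.

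Precursors come before this stage. Of 13 tested precursor markers 2 fell, Neu4 (-0.40) and Susd5 (-0.36 on the log2 scale), and all 13 differences were negative, with a median of -0.27. Pdgfra, the growth factor receptor that defines precursors, had 7.81, 8.83 and 10.0 RPKM in juveniles and 5.46, 7.53 and 9.46 RPKM in young adults. The groups overlapped and Pdgfra did not pass (-0.24, 95% interval -0.44 to -0.04; limma adjusted p = 0.16). Olig1 and Olig2, transcription factors of the whole lineage, did not pass either (-0.49 and -0.45, adjusted p = 0.068 and 0.12).

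Of 28 tested genes of myelin structure and maturation 11 fell and 0 rose (median -0.41), and 7 of the 28 differences were positive. Ugt8a, which makes the myelin lipid galactosylceramide, had 16.98, 27.8 and 59.5 RPKM in juveniles and 8.54, 10.8 and 22.8 RPKM in young adults. It fell by 1.31 on the log2 scale with 9 of 10 young adults below all juveniles (limma adjusted p = 0.003), and Gal3st1, which adds sulphate to that lipid, fell by 0.70 (adjusted p = 0.012). Mog, on the outer face of the sheath, fell by 1.01, Cldn11, the myelin tight junction protein, by 0.96, and Mag, at the contact of sheath and axon, by 0.78 (limma adjusted p = 0.013, 0.012 and 0.017).

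Mbp, the protein that compacts the sheath, had 206, 316 and 590 RPKM in juveniles and 146, 186 and 363 RPKM in young adults. The groups overlapped in 4 young adults, and the difference was -0.73 ± 0.20 (log2, SE; limma adjusted p = 0.042), with 14 of the 19 fits that left out 1 mouse above the threshold and a highest adjusted p of 0.1004. The spread of myelin genes was wide among mice of 1 age: of the day 21 mice, Mbp was 590 RPKM in mouse 13 and 206 RPKM in mouse 41. Gsn, an actin-severing protein abundant in oligodendrocytes, had 24.2, 40.1 and 61.0 RPKM in juveniles and 14.04, 17.1 and 28.8 RPKM in young adults (-1.05 ± 0.15, limma adjusted p = 0.0016).

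The fall of the oligodendrocyte genes was read against the other ages as a description. Gpr17 averaged 38.3 RPKM at days 10 to 12, 24.5 RPKM at days 21 to 24, 17.5 RPKM at days 32 to 34 and 10.2 RPKM at days 55 to 111. Mbp averaged 134 RPKM at days 10 to 12, 375 RPKM at days 21 to 24, 325 RPKM at days 32 to 34 and 206 RPKM in young adults. Of these 4 ages Gpr17 was highest at days 10 to 12 and Mbp at days 21 to 24.

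**Figure D3:**
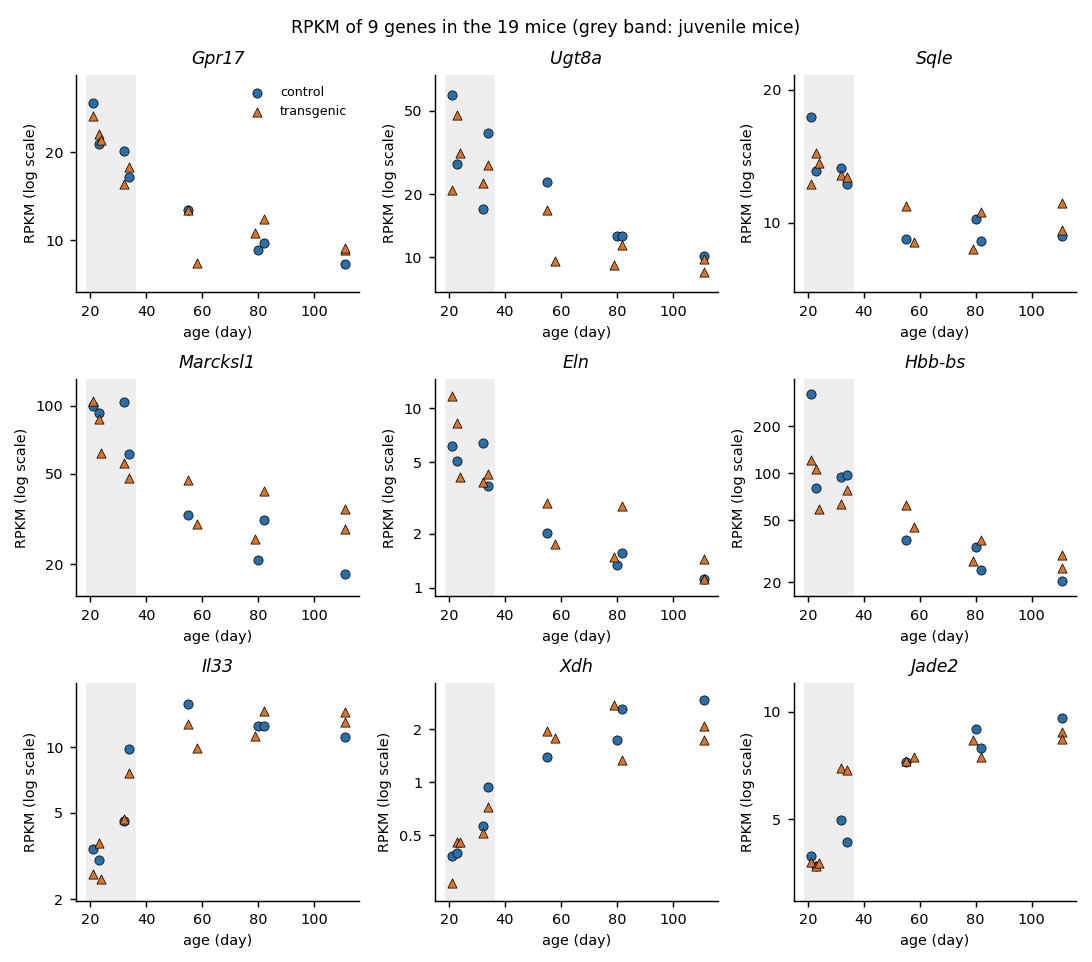
RPKM on a log axis against age in days for 9 genes, 1 point per mouse, control mice as circles and transgenic mice as triangles, juveniles in the grey band. Gpr17, Sqle, Marcksl1 and Eln are lower in every young adult than in every juvenile, Il33, Xdh and Jade2 are higher in every young adult, and Ugt8a and Hbb-bs overlap between the groups.

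Cholesterol synthesis, on which myelin membrane depends because the brain makes its own sterol, was lower in young adults by small amounts. Of 23 tested enzymes and regulators 9 fell and 0 rose, with a median log2 difference of -0.24, and 1 of the 23 differences was positive. Sqle, squalene epoxidase, had 12.2, 13.1 and 17.3 RPKM in juveniles and 8.70, 9.48 and 11.1 RPKM in young adults, with no overlap (-0.45 ± 0.06, limma adjusted p = 0.0016). Dhcr7, a late reductase of the pathway, had 8.90, 10.1 and 12.1 RPKM in juveniles and 6.61, 7.69 and 9.37 RPKM in young adults. Of the 10 young adults 8 were below all juveniles, and Dhcr7 fell by 0.39 on the log2 scale (limma adjusted p = 0.0037). Cyp51, a sterol demethylase, and Fdps, which makes the farnesyl building block, fell by 0.34 and 0.29 (limma adjusted p = 0.012 and 0.025).

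Genes of neurite outgrowth were lower in young adults. Of 27 tested members 13 fell and 0 rose (median -0.34), and all 27 differences were negative. Marcksl1, an actin-regulating protein of growing processes, had 47.99, 87.7 and 105 RPKM in juveniles and 18.04, 30.7 and 47.1 RPKM in young adults. The groups did not overlap, though the highest young adult was near the lowest juvenile (-1.34 ± 0.19, limma adjusted p = 0.0012). Cd24a, a surface protein of immature neurons, had 6.04, 9.38 and 22.4 RPKM in juveniles and 1.69, 4.07 and 7.06 RPKM in young adults, with 3 of 10 young adults inside the juvenile range (-1.28 ± 0.27, limma adjusted p = 0.011).

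Dcx, the microtubule protein of migrating neurons, had 3.44, 6.05 and 14.8 RPKM in juveniles and 2.30, 3.29 and 4.57 RPKM in young adults (-0.81 ± 0.19, limma adjusted p = 0.023). Its highest juvenile, mouse 15, was also the highest in Fabp7, a lipid carrier of radial glia, with 74.8 RPKM against a juvenile median of 21.5 RPKM. Fabp7 fell by 1.04 on the log2 scale, with 6 of 10 young adults below all juveniles (limma adjusted p = 0.018). Olfactory bulb and neuroblast markers ran from 27.7 to 90.7 summed RPKM in juveniles and from 19.2 to 54.5 in young adults. The median sums were 32.3 and 33.6 RPKM. The median log2 difference of these markers was -0.34, with 0.01 in line a and -0.78 in line b. Their part in the Dcx and Fabp7 difference was not tested. Abundant tubulins fell by smaller amounts: Tuba1a, the alpha tubulin of growing axons, from a median of 391 to 264 RPKM (-0.52), and Tubb3, the neuronal beta tubulin, from 228 to 178 RPKM (-0.34, limma adjusted p = 0.003 and 0.02).

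Among 34 axon guidance genes 6 fell and 1 rose, where 3.14% of all genes were called lower and 1.48% higher. Sema6a, a membrane-bound repulsive cue, fell by 0.55, and Sema3a, a secreted one, by 0.28 (limma adjusted p = 0.012 and 0.0092). Unc5a, a netrin receptor, rose by 0.32 (adjusted p = 0.016). Of 16 neurofilament and axon cytoskeleton genes 3 fell, among them Nfasc, an anchor of the node of Ranvier, by 0.46 (adjusted p = 0.0034), and 0 rose.

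Collagens and their processing enzymes were lower in young adults. Of 31 collagen and basement membrane genes 10 fell and 0 rose (median -0.18). Col1a1, a chain of type I collagen, had 1.85, 2.70 and 4.51 RPKM in juveniles and 0.92, 1.35 and 2.31 RPKM in young adults, 9 of 10 of them below all juveniles (-0.92 ± 0.14, limma adjusted p = 0.0016). Col3a1, type III collagen, had 0.90, 1.31 and 3.17 RPKM in juveniles and 0.19, 0.38 and 0.86 RPKM in young adults with no overlap (-1.21 ± 0.18, limma adjusted p = 0.0016). Eln, which encodes the elastin of arterial walls, had 3.69, 5.10 and 11.7 RPKM in juveniles and 1.12, 1.52 and 2.96 RPKM in young adults, again without overlap (-1.48 ± 0.20, limma adjusted p = 0.00094).

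The same direction held for the collagen chaperone Serpinh1 (-0.58) and the cross-linking enzyme Lox (-0.52; limma adjusted p = 0.0058 and 0.0091). Collagen is made by cells of vessels and meninges. Over all genes tested 3.14% were called lower. Of 15 meningeal fibroblast markers 1 fell, Igfbp2, and their summed level ran from 63.0 to 115 RPKM in juveniles and from 58.8 to 120.0 RPKM in young adults. Of 21 endothelial and pericyte markers 4 fell: Apcdd1, a Wnt inhibitor, Kdr, the main receptor for vascular endothelial growth factor, Mfsd2a, a lipid transporter of the blood-brain barrier, and Rgs5 of pericytes. Their differences were -0.80, -0.56, -0.52 and -0.45 on the log2 scale. Their summed level ran from 195 to 248 RPKM in juveniles and from 168 to 219.6 RPKM in young adults, and the part of vessel content in the collagen and Eln difference was not tested.

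In the brain's own matrix, which forms nets around neurons, 5 of 17 tested genes fell and 0 rose. Hapln1, the link protein that ties hyaluronan to proteoglycans, had 4.79, 5.75 and 8.22 RPKM in juveniles and 2.81, 3.91 and 4.80 RPKM in young adults, with 9 of 10 young adults below all juveniles (-0.64 ± 0.11, limma adjusted p = 0.0036). The proteoglycans Vcan and Ncan fell by 0.47 and 0.39, the sulphotransferase Chst3 by 0.56 and the protease Adamts4, which cuts proteoglycans and is also made by oligodendrocytes, by 0.66 (limma adjusted p = 0.0031, 0.017, 0.0031 and 0.0063).

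**Figure D4:**
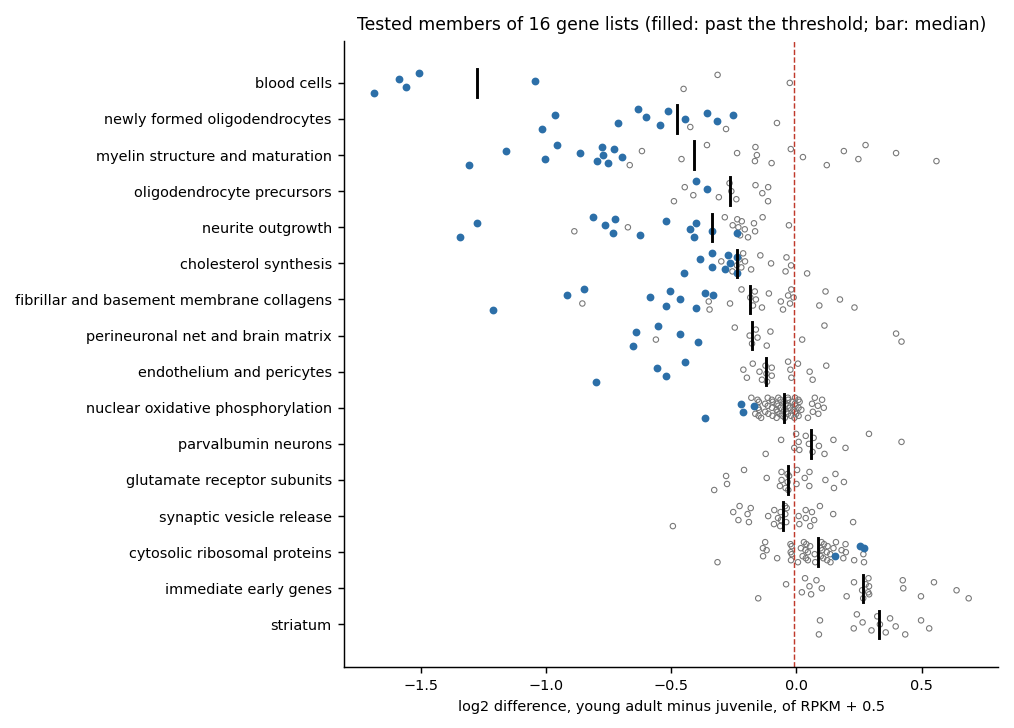
Log2 difference between young adults and juveniles for the tested members of 16 gene lists, filled where past the threshold, with a black bar at each list's median and a dashed line at the median of all genes. The medians of the blood, oligodendrocyte, neurite and cholesterol lists lie left of the dashed line, and no member of the parvalbumin, glutamate receptor, vesicle, immediate early and striatal lists is filled.

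The largest falls were haemoglobin genes. Hbb-bs had 58.7, 94.9 and 323 RPKM in juveniles and 20.2, 31.7 and 62.0 RPKM in young adults, 9 of 10 of them below all juveniles (-1.59 ± 0.27, limma adjusted p = 0.0031). Hbb-bt, Hba-a1 and Hba-a2 fell by 1.69, 1.56 and 1.51 (limma adjusted p = 0.0066, 0.0081 and 0.011). These paralogs are near identical, so reads may be split among them. Alas2, the haem synthesis enzyme of red cells, fell by 1.05 (adjusted p = 0.043). It passed in 8 of the 19 fits that left out 1 mouse.

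Of 8 blood markers 5 fell, and their summed level ran from 110.0 to 671 RPKM in juveniles and from 36.6 to 126 RPKM in young adults. The highest was mouse 13, of day 21. Like the blood markers, the oligodendrocyte, neurite, cholesterol and collagen lists had negative median differences. With the blood covariate, which also takes up age, 0 members of those lists passed in limma, as 0 of all genes did. With that covariate the median log2 difference was -0.24 for newly formed oligodendrocytes, -0.07 for myelin, -0.23 for neurite outgrowth, -0.13 for cholesterol and -0.11 for collagens. The part of blood in their differences was not tested. Without mice 13 and 41, the counts that fell were 8 of 14 for newly formed oligodendrocytes, 9 of 28 for myelin, 6 of 27 for neurite outgrowth, 4 of 23 for cholesterol and 5 of 31 for collagens. The medians of these lists were then -0.45, -0.44, -0.34, -0.21 and -0.18. Without mice 13, 16, 20 and 41, which had the lowest striatal markers, the counts were 4, 1, 4, 3 and 4 and the medians -0.41, -0.35, -0.36, -0.21 and -0.18. The calls over all 16403 genes shrank as well. The genes called lower were 515 in the main fit, 167 without mice 13 and 41, and 95 without mice 13, 16, 20 and 41.

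Among the 44 lists the largest number of genes that rose was 3. Il33, a nuclear alarmin cytokine that in brain is made by glia, had 2.47, 3.65 and 9.83 RPKM in juveniles and 9.89, 12.7 and 15.8 RPKM in young adults. All young adults were above all juveniles by a narrow margin (1.49 ± 0.20, limma adjusted p = 0.00087). Xdh, xanthine dehydrogenase of purine breakdown, had 0.27, 0.46 and 0.93 RPKM in juveniles and 1.34, 1.88 and 2.94 RPKM in young adults with no overlap (1.31 ± 0.13, limma adjusted p = 0.00019). Abca8a, a lipid transporter family member, had 0.24, 0.38 and 0.48 RPKM in juveniles and 0.72, 0.99 and 1.80 RPKM in young adults, also without overlap (0.81 ± 0.10, limma adjusted p = 0.00056). Xdh and Abca8a were below the level needed to be named and were chosen after their values were seen.

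Jade2, a chromatin-associated zinc finger protein, had 3.70, 3.95 and 6.93 RPKM in juveniles and 7.21, 8.12 and 9.63 RPKM in young adults with no overlap (0.77 ± 0.12, limma adjusted p = 0.0016). Cbx7, a subunit of Polycomb repressive complex 1, had 6.06, 8.75 and 12.15 RPKM in juveniles and 12.13, 13.5 and 15.2 RPKM in young adults. The groups overlapped in 1 young adult (0.61 ± 0.10, limma adjusted p = 0.0031). The nuclear noncoding RNA Neat1, the scaffold of paraspeckles, rose from a median of 2.74 to 4.99 RPKM (0.76, adjusted p = 0.0034), the heat shock transcription factor Hsf4 from 4.21 to 7.72 RPKM (0.90, adjusted p = 0.0066) and the troponin Tnnt2 from 2.31 to 3.78 RPKM (0.61, adjusted p = 0.021).

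Rises of 6 further genes were close to the threshold. Igfn1, Plk5, Car12, Ier5l, Rims3 and the Mir425 row differed by 0.92, 0.79, 0.67, 0.66, 0.61 and 0.72 on the log2 scale. Their adjusted p in limma was between 0.028 and 0.045 and was above 0.05 in 10 to 15 of the 19 fits that left out 1 mouse. Car12 encodes a carbonic anhydrase, Plk5 a polo-like kinase of neurons and Rims3 a protein of the presynaptic release site. Mir425 is a hairpin inside a longer transcript, and polyA reads there do not measure the mature microRNA.

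Few genes of neuronal function passed, where 4.62% of all genes did. Of 22 glutamate receptor, 14 GABA receptor, 28 vesicle release, 16 parvalbumin neuron and 16 other interneuron genes, 0 passed in limma or by voom (2, 2, 2, 2 and 3 at an unadjusted p under 0.05), and 1 of 38 sodium and potassium channels did. Pvalb, the calcium-binding protein of fast-spiking interneurons, had 15.2, 24.4 and 34.99 RPKM in juveniles and 11.6, 21.9 and 40.8 RPKM in young adults. Its difference was -0.01 with a 95% interval of -0.48 to 0.46 (limma adjusted p = 0.99). The NMDA receptor subunits Grin2a and Grin2b, whose ratio shifts in early postnatal life, differed by 0.19 (interval -0.21 to 0.59) and 0.03 (interval -0.28 to 0.35), with adjusted p = 0.64 and 0.93.

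Immediate early genes, read-outs of recent activity, had a median difference of 0.27 with 21 of 23 positive, and 0 passed in limma or by voom (3 at an unadjusted p under 0.05). The median was 0.54 in controls and -0.0051 in transgenic mice, and -0.08 with the blood covariate. Fos itself overlapped fully, with 3.53 to 21.6 RPKM in juveniles and 3.48 to 13.6 RPKM in young adults. Of 18 clock genes 16 had a positive difference and 1 passed, the repressor Bhlhe41 (0.41, adjusted p = 0.0062). Of 20 astrocyte genes 1 fell, and of 20 microglial genes 2, P2ry12 and Fcrls. Over all genes tested 1.48% were called higher and 3.14% lower. Gfap, the astrocyte filament, differed by -0.13 (interval -0.68 to 0.42, adjusted p = 0.84) and Cx3cr1, the microglial fractalkine receptor, by -0.06 (interval -0.20 to 0.08, adjusted p = 0.7).

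Of 13 tested genes of ketone body and monocarboxylate use 3 fell and 0 rose, with a median of -0.05 and 5 of 13 differences positive. The 3 were Oxct1, the enzyme that activates acetoacetate, Bdh1, which oxidises hydroxybutyrate, and Slc16a1, the monocarboxylate transporter. Oxct1 had 88.2, 101 and 128 RPKM in juveniles and 77.7, 80.3 and 84.1 RPKM in young adults, with no overlap (-0.36 ± 0.06, limma adjusted p = 0.0031). Bdh1 and Slc16a1 fell by 0.53 and 0.49 (adjusted p = 0.0063 and 0.016), and all 3 were still called without mice 13 and 41. In the tricarboxylic acid cycle 5 of 21 fell, led by the pyruvate dehydrogenase subunits Pdhx and Pdhb (-0.26 and -0.27), with a list median of -0.06. Of 63 nuclear oxidative phosphorylation genes 4 fell, by 0.17 to 0.36, where 3.14% of all genes were called lower, and 13 of the 63 differences were positive (median -0.05). Of the mitochondrial-genome rows 8 of 8 tested differences were positive and 1 was called, mt-Nd3 (0.96, limma adjusted p = 0.023). Their median was 0.14, and 0.0087 under quantile normalization. By voom 4 of the 8 passed. Of 20 genes of glutamate and GABA metabolism 0 passed in limma or by voom (3 at an unadjusted p under 0.05), and Glud1, the mouse counterpart of the transgene, differed by -0.01 (interval -0.17 to 0.14, adjusted p = 0.95).

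Chromatin genes were mixed. Tet1, a 5-methylcytosine oxidase, and Dnmt3a, a de novo DNA methyltransferase, fell by 0.52 and 0.41, while Ezh1, a Polycomb methyltransferase of nondividing cells, rose by 0.27 (limma adjusted p = 0.0031, 0.015 and 0.0095). These were the 3 called of 31. Plin4, a lipid droplet coat protein that responds to glucocorticoid, rose from a median of 0.37 to 1.31 RPKM (1.03, limma adjusted p = 0.0048), but 1 of the other 15 stress genes fell, Ddit4 (-0.41), and 14 did not pass. Of 46 cytosolic ribosomal protein genes 3 rose, by 0.16 to 0.27, where 1.48% of all genes were called higher. The median of this list was 0.09, with 0.18 in transgenic mice and -0.05 in controls. Of 32 cell division genes 0 passed in limma or by voom (11 at an unadjusted p under 0.05), with 5 of 32 differences positive.

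**Figure D5:**
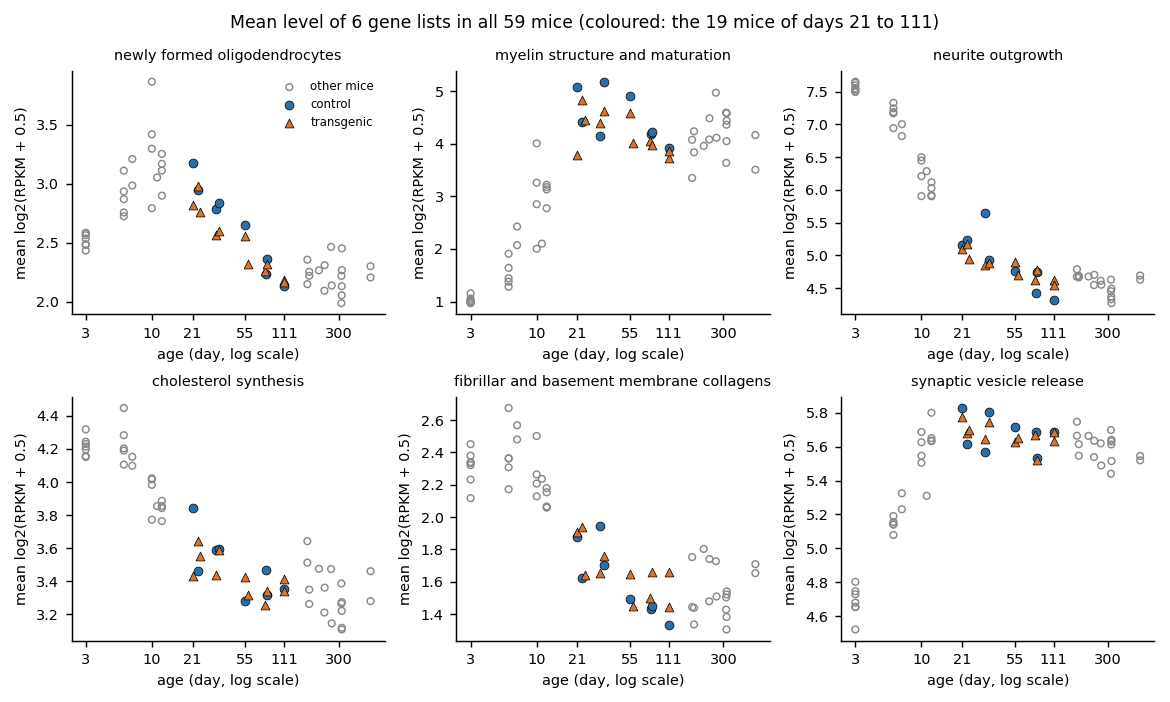
Mean log2(RPKM + 0.5) of 6 gene lists against age in days on a log axis, 1 point per mouse for all 59 mice, with the 19 mice compared in colour. Averaged by age group, the myelin list is highest at days 32 to 34 (4.59) and the vesicle release list at days 21 to 24 (5.72). The myelin list stands at 4.14 at days 55 to 111 (10 mice) and at 4.18 at days 170 to 319 (15 mice). At day 538, with 2 mice only, the myelin and vesicle release lists stand at 3.84 and 5.53. Neurite and cholesterol genes are highest in the first days and lower at each later stage up to day 111.

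The 9 juveniles span 2 sets of ages. Between days 21 to 24 (5 mice) and days 32 to 34 (4 mice), 2 genes were higher and 1 lower (0.0183% of those tested; limma, 1815 at an unadjusted p under 0.05, 11.1%; 1 by voom). Hspb1, a small heat shock protein, rose by 0.91 ± 0.12 and Ddit3, a stress-induced transcription factor, by 0.44 ± 0.06 on the log2 scale. Apc, a brake on Wnt signalling, fell by 0.71 ± 0.10 (limma adjusted p = 0.013, 0.017 and 0.017). Apc had 31.1 to 67.0 RPKM in juveniles and 20.8 to 30.3 RPKM in young adults, with no overlap.

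From days 32 to 34 to young adulthood, 3 genes were higher and 3 lower (0.0366%; limma, 1292 at an unadjusted p under 0.05, 7.88%; 9 by voom). The 6 genes, named after their values were seen, were Xdh (1.09), Il33 (0.96) and Abca8a (0.79) upward and Gpr17 (-0.75), the kinase Map4k4 (-0.40) and the protease Adam17 (-0.31) downward, with adjusted p of 0.033 to 0.0498. With a pseudocount of 1 in place of 0.5, 0 passed, with the block of line and day 0 (950 at an unadjusted p under 0.05), and without 1 mouse 0 to 7. For Gpr17 the change inside the juvenile window was -0.48 ± 0.13 (limma adjusted p = 0.2). The median of the newly formed oligodendrocyte list was -0.21 inside the juvenile window and -0.31 after it, and that of myelin 0.03 and -0.41. These 2 steps share the mice of days 32 to 34.

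Control and transgenic mice share no animal and were set side by side, though 7 of the 8 controls have a transgenic mouse of the same line and day. In controls 0 genes passed (limma; 2122 at an unadjusted p under 0.05, and 0 by voom on recovered reads). In transgenic mice 6 were higher (0.0366%) and 8 lower (0.0488%), 0.0854% in all, and without 1 mouse 0 to 43 were called. Of these 14 genes 12 had the same sign in controls, 9 of them at an unadjusted p under 0.05, which 12.9% of all genes reached. The differences in controls and in transgenic mice were 1.304 and 1.29 for Xdh, 1.37 and 1.57 for Il33, and -1.08 and -0.97 for Gpr17, each short of the threshold in controls (adjusted p = 0.13, 0.21 and 0.2). The median of newly formed oligodendrocyte genes was -0.66 in controls and -0.43 in transgenic mice, and of myelin genes -0.39 and -0.43. The difference between the genotypes was tested directly and 0 genes passed (limma; 1455 at an unadjusted p under 0.05, 8.87%, and 0 by voom), as with line and day as a block over the 7 pairs (limma, 2065 at an unadjusted p under 0.05). Without the block the smallest p belonged to Lrp10, Gm9803 and Gm11837, with adjusted p = 0.54. Within the 7 pairs the smallest adjusted p was nearer the threshold, at 0.068 (limma).

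The lines also share no animal. In line a 6 genes were higher and 40 lower (0.28%), and without 1 mouse 1 to 68 were called. With the block of line and day 18 passed. Of the 46 genes 45 had the same sign in line b, 23 of them at an unadjusted p under 0.05, which 10.6% of all genes reached. In line b 1 gene passed (0.0061%), Il33 (1.64, limma adjusted p = 0.013). The median of myelin genes was -0.60 in line a, with 8 called, and -0.20 in line b, with 0 called, and that of newly formed oligodendrocyte genes was -0.52 and -0.47. For neurite outgrowth the medians were -0.33 and -0.47. The difference between lines was tested gene by gene and not for a list. Across all genes tested the differences in the lines had Pearson's r = 0.31 and the same sign in 62.0%, and those in the genotypes r = 0.24 and 57.04%, where genes are not independent replicates. The stage difference differed between lines in 0 genes (limma; 899 at an unadjusted p under 0.05, 5.48%, and 0 by voom) and between females and males in 0 genes (limma; 740 at an unadjusted p under 0.05, 4.51%, and 0 by voom). The smallest p were those of Gm13322, Gm7846 and Efcab10 (adjusted p = 0.89) for line and of Gm15777, Uqcrh-ps2 and Gm22637 (adjusted p = 0.075 to 0.66) for sex.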

How the data were processed

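PolyA RNA of 19 mice was analysed from a table in which the authors deposited RPKM per gene and library, of 59 columns and 18610 rows. Reads were aligned with STAR to mm9, per the submitters' processing notes. The annotation, the counting method and the STAR version were not given in the sources used here. Symbols came from GENCODE vM21 for 17734 rows, and 874 had none. RPKM steps gave whole reads within 0.01 reads in all 18610 rows, so depth is known, and 1 RPKM unit is 33.3 reads in the median.

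A gene was tested where 10 or more of the 59 libraries reached 0.5 RPKM (16403 genes). limma 3.58.1 in R 4.3.3 was fitted on log2(RPKM + 0.5) with a mean-dependent prior, genotype and line as covariates, and Benjamini-Hochberg adjustment over all genes with a threshold of 0.05. Single values used two-sided exact permutation tests (scipy 1.17.1). The fits were also run on simulated data. Those data held no differences between mice in blood or neighbouring tissue, so that run cannot vouch for the calls made here. Alternatives varied the pseudocount, filter, scaling, covariates, array weights and mice; voom, the blood covariate, a block of line and day (duplicateCorrelation, or a term within the 7 pairs for the genotype interaction) and 4 sets of mice left out were chosen after seeing the data. Members and gene lists were chosen with earlier results of these data known. Named were the 12 largest rises and falls among called genes with a mean of at least 2 RPKM, up to 5 members of each list by p, the genes or 3 smallest p of each further comparison, and genes fixed by name (GLUD2, lincBAC, Glud1, Pvalb, Mbp, Grin2a, Grin2b, Fos, Dcx, Pdgfra, Col1a1, Gfap and Cx3cr1). Some genes that the rule names are not reported here. 44 lists were used, and list members named as examples were picked from these.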

Additional observations from a re-analysis of the deposited data

Results flagged for a closer look

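Of 84 groups of named genes checked for a value far from the others, 5 stood apart, and chance flags about 1 in 20 groups. All 5 are the juvenile control mouse 13 of line a, day 21. Its Hbb-bt was 100.6 RPKM against 11.0 to 32.2 RPKM in the other 8 juveniles, its Hbb-bs 323 RPKM against 58.7 to 122 RPKM, its Hba-a1 127 RPKM against 19.5 to 43.1 RPKM and its Hba-a2 108 RPKM against 17.7 to 38.003 RPKM. Its Sqle was 17.3 RPKM against 12.2 to 14.4 RPKM.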

How the results depend on the processing

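Values below are numbers of genes past the threshold. The change from juveniles to young adults (757) became 0 without days 21-24, 145 without day 111, 1305 with the hypothalamus covariate and 1101 with array weights. Among settings chosen after seeing the data, it became 0 with the blood covariate and 423 with line and day as replicate block. With sets of mice left out it became 1036 without mice 44, 45, 46, 49 and 50, 448 without mice 16, 17, 49 and 50, 136 without mice 13, 16, 20 and 41 and 211 without mice 13 and 41. The change in control mice (0) became 1 with a pseudocount of 0.1, 1 under quantile normalization, 1 under median ratio scaling, 23 with array weights and 3 without covariates. The change in transgenic mice (14) became 9 with a mean of at least 2 RPKM and 3 with sex added. The change in line a (46) became 192 with array weights 109 by voom and 18 with the replicate block, and that in line b (1) became 0 with sex added. The interaction of sex with stage (0) became 1 with array weights. Days 32-34 minus days 21-24 (3) became 9 with a pseudocount of 0.1, 9 with a mean of at least 2 RPKM, 9 with a filter on 9 of 19 mice, 1 under median ratio scaling, 190 with array weights, 5 without covariates and 1 by voom. Young adults minus days 32-34 (6) became 3 with a pseudocount of 0.1, 0 with a pseudocount of 1, 3 without a filter, 0 with a mean of at least 2 RPKM, 34 with array weights, 1 with sex added and 0 with the replicate block. The causes of these changes were not tested. Where mice were left out, the number of mice was smaller as well, and its part was not tested either.

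Leaving out 1 mouse at a time gave 383 to 948 for the main change, 0 to 6 in controls, 0 to 43 in transgenic mice, 1 to 68 in line a, 0 to 2 in line b, 0 to 1 for each interaction (genotype, line and sex), 0 to 19 for days 32-34 minus days 21-24 and 0 to 7 for young adults minus days 32-34. The difference of GLUD2 in transgenic mice ran from -0.0113 (without mouse 49) to 0.751 RPKM, that of lincBAC in transgenic mice from 1.02 to 2.31 RPKM (without mouse 47, exact permutation p = 0.0317) and that of the mitochondrial share from 0.917 to 1.13 percentage points. Over 34 genes and 41 settings, 1141 of 1392 values kept direction and call, 250 kept direction only and 1 turned: Alas2, itself a blood marker, was 0.0926 with the blood covariate (Alas2, juvenile to young adult change). Of the 34 genes 25 stayed past the threshold without each mouse, and 15 lost it only without days 21-24 and with the blood covariate. Genes under about 1 RPKM rest on few reads per library (33.3 per RPKM unit in the median), which limits their precision. Mouse numbers pair no mice. The replicate block was the line and day of the labels, chosen after seeing the data, and gave 1 gene in line b, 3 for days 32-34 minus days 21-24 and 0 for each of the 3 interactions, as without it.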
